A study of Homo sapiens with 4 samples.

Results

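The comparison described here sets THP-1 cells that spent 12 h with platelet-like particles against THP-1 cells treated with Pam3CSK4 alone. THP-1 is a human cell line of acute monocytic leukaemia. Pam3CSK4, a synthetic lipopeptide, is a ligand of TLR2 paired with TLR1, and the co-cultured cells had received it too, as the design text states. Each side was 1 array, labelled in the sources as Pam-activated cells and as cells kept with the particles, and the series holds 4 arrays in all, the others being resting cells and a 24 h co-culture. The question, as the design poses it, is what the particles added to cells that were already activated. How long the control cells were treated and which cells shed the particles are not given in the sources used here, so time in culture and particles cannot be told apart. With 1 array a side no test was possible, and every value below is a difference between those arrays. The members are the 13129 genes, of 19775 with a probe set of their own, whose value reached 6.19 log2, the median of the whole table, on the Pam3CSK4 or the 12 h array. On any of the 4 arrays 13422 genes did so. Probe sets that read HBG1 with HBG2, or HBA1 with HBA2, were kept as pairs.

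Monocytes read bacterial lipoproteins through TLR2, whose adaptor MYD88 leads to the NF-kB transcription factors and to the release of chemokines, small secreted proteins that draw other leukocytes. Platelets lack a nucleus and carry RNA from the megakaryocyte that shed them, and platelet-like particles are the corresponding bodies shed by megakaryocytic cells in culture. Platelets and their particles bind monocytes through P-selectin, and such contact is known to alter monocyte chemokine and tissue factor genes.

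The cells carried the label's lineage. Of 9 monocyte markers 8 were above the filter level on each of the 4 arrays, S100A8 and S100A9, the calgranulins of myeloid cells, among them. The 12 h and Pam3CSK4 arrays differed in some technical measures. For GAPDH the control probe set at the 3' end minus the one at the 5' end, a gap that widens as RNA breaks, was 0.92 log2 at 12 h and 0.59 with Pam3CSK4. For ACTB the gap was 3.17 against 2.91. The resting array, whose values are given below beside the others, had the widest gaps of the 4 arrays, 2.16 for GAPDH and 3.41 for ACTB. The 27 probe sets of bacterial control transcripts differed by -0.03 to 0.77 (12 h minus Pam3CSK4), with a median of 0.23, and the 18 of hybridisation controls by 0.08 to 0.31, with a median of 0.15. These controls do not come from the cells. Their part in the differences between cells was not tested.

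Most genes sat close together on the arrays. Of the 13129 genes, 12134, or 92.4%, differed by less than 0.5 log2, and the median difference, taken as 12 h minus Pam3CSK4 here and below, was -0.05. The middle of the distribution ran from -0.21 at the 25th percentile to 0.11 at the 75th. At the edges, 55 genes, or 0.419%, were at least 2-fold higher (1 on the log2 scale) while 47 genes, or 0.358%, were lower at 12 h by as much, together 0.777%. The 24 h array, set against the same Pam3CSK4 array, had 3 of 12908 genes (0.0232%) at 2-fold higher and 0 (0%) at 2-fold lower. At 12 h, 6 genes were at least 4-fold higher, and 2 were at least 4-fold lower, S1PR3 and BMP8B. Positive differences were the minority, with 41.2% of genes. The middle of the differences moved with level, from a median of 0.05 in 2739 genes under 7 log2 to -0.11 in 1624 genes between 10 and 11. The genes just inside the 2-fold line were EPSTI1 at 1.004 and CLEC4A at -1.001, while the nearest outside were LOC105371622 at 0.999 and CENPH at -0.996. A gene near that line is therefore not separated from its neighbours by the count.

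**Figure D1:**
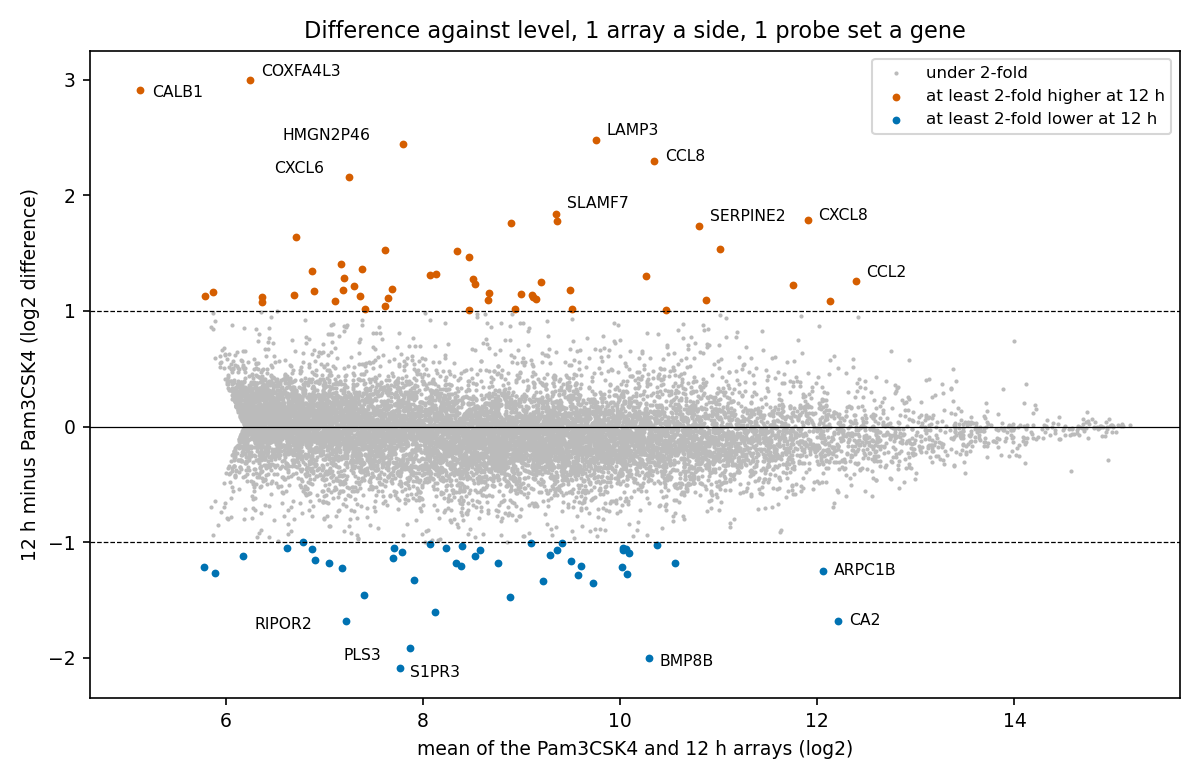
Difference between the 12 h and Pam3CSK4 arrays (log2, vertical axis) against the mean of the same arrays (log2, horizontal axis), 1 point per gene, with the 2-fold lines dashed. The 55 genes above the upper line spread over the whole range of levels up to about CXCL8 and CCL2, and the bulk of the 13129 genes lies within 0.5 log2 of 0.

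The higher genes were led by chemokines. A list of 8 CXC chemokines held attractants of neutrophils, mostly ligands of CXCR1 or CXCR2. Of the 8, 4 were above the filter on the Pam3CSK4 array, and those 4 were at least 2-fold higher, against 0.419% of all genes. Their median difference was 1.66 against -0.05. CXCL6 passed the filter through the 12 h array alone and so had to be higher there, and with it the median was 1.78. CXCL8, or interleukin-8, stood at 6.27 in resting cells and 11.01 after Pam3CSK4 alone, then at 12.80 in the 12 h and 11.60 in the 24 h co-culture. It was highest at 12 h and its 24 h value lay nearer to Pam3CSK4. Its second probe set went from 7.32 with Pam3CSK4 to 9.49 at 12 h, a difference of 2.17 against 1.79 on the first. CXCL6 went from 4.27 in resting cells and 6.18 with Pam3CSK4 to 8.33 at 12 h and 6.99 at 24 h. The Pam3CSK4 value of CXCL6 lay slightly below the filter, and its difference of 2.16 therefore depends on background.

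CXCL1, CXCL2 and CXCL3, close relatives in sequence, followed the same course over the arrays. CXCL1 read 5.49 in resting cells, 10.25 with Pam3CSK4, 11.79 at 12 h and 10.77 at 24 h, which made it 2.90-fold higher at 12 h. CXCL2 read 5.98, 8.47, 10.25 and 8.99 in the same order, a 3.43-fold difference. CXCL3 read 5.47, 6.21, 7.55 and 6.33, a 2.54-fold difference. On all 3 genes the 12 h array was the highest and the resting array the lowest. The CXCL2 probe set carries the suffix _x_at, which marks probes that can bind related transcripts, and 2 further probe sets of CXCL2 under the filter level differed by 0.51 and -0.18. Reads of CXCL2 and of its relatives may thus be mixed. The remaining list members, CXCL5, PPBP and PF4, stayed under the filter level on both arrays.

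These 5 genes lie in a run on chromosome 4, with 0 to 3 other genes of the array between neighbours. Their promoters are shown because they share a sequence feature. The stretches are the 250 bases before each start site as RefSeq gives them in GRCh38.p14, 5' to 3' along the gene, with matches in capitals. The motifs searched were GGAATTTCC and a longer form, GGG and TTTCC with any 2 bases between them, both versions of the NF-kB binding site that can overlap each other. TGANTCA, the AP-1 site, was the next, followed by the core of the interferon response element, GAAA repeated with any 2 bases between the copies. These were searched on both strands, and TATAAA on the gene's own strand.
CXCL8, chr4:73740319-73740568, plus strand: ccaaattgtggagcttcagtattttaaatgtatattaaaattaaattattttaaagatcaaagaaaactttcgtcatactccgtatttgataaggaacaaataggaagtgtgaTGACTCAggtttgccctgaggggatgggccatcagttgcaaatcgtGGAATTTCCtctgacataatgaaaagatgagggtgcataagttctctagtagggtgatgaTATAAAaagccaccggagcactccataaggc
CXCL6, chr4:73836428-73836677, plus strand: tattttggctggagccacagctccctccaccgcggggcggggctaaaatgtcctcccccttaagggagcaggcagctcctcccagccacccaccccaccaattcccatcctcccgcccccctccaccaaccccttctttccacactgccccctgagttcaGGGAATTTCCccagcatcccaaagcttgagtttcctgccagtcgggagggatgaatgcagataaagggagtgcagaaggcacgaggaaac
CXCL1, chr4:73869143-73869392, plus strand: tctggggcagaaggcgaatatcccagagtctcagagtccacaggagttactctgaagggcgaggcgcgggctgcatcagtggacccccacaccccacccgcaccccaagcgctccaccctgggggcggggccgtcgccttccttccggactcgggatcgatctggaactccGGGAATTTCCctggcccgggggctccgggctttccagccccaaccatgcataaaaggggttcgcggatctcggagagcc
CXCL2, chr4:74099196-74099445, minus strand: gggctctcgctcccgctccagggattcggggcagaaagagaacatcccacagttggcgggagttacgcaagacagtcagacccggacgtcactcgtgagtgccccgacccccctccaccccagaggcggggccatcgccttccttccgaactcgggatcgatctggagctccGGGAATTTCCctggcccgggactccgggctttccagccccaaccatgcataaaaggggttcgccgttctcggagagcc
CXCL3, chr4:74038690-74038939, minus strand: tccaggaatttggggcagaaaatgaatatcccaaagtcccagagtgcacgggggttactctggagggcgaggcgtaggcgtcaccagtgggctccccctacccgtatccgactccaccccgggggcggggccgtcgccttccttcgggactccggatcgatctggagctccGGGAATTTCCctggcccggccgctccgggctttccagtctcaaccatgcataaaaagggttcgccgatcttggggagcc
Each of the 5 stretches held GGAATTTCC, with its first base at -91 in CXCL8, -89 in CXCL6, -78 in CXCL1, -77 in CXCL2 and -78 in CXCL3. CXCL8 also held TGACTCA at -137 and TATAAA at -31. CXCL1, CXCL2 and CXCL3 are gene duplicates, so their matches are not separate occurrences. Of 35116 promoters in the table, 0.413% held GGAATTTCC and 2.002% held either form. Over genes, either form was found in 8 of the 40 higher genes with a promoter in the table, in 0 of 35 lower genes and in 3.06% of 10581 measured genes. The 8 were CXCL1, CXCL2, CXCL3, CXCL6, CXCL8, CCL20, MAP3K8 and OAS3. TATAAA was found in 10 of the 40 higher genes, in 3 of the 35 lower genes and in 5.38% of the measured genes. For TGANTCA these were 5 of 40, 3 of 35 and 6.10%. The NF-kB forms were thus not the only motif with a larger share in the higher genes. A match is a string of letters and shows no binding.

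Among the CC chemokines, which draw monocytes and lymphocytes, 5 of 8 measured members were at least 2-fold higher, against 0.419% of all genes. At least 2-fold lower were 0, against 0.358%, and the median was 1.11. CCL8 had the largest difference, at 4.65 in resting cells, 9.20 with Pam3CSK4, 11.50 at 12 h and 10.07 at 24 h, or 4.91-fold. CCL2, the main attractant of monocytes and a neighbour of CCL8 on chromosome 17, read 5.98, 11.76, 13.02 and 12.16. CCL22, a ligand of CCR4, was already at 7.79 in resting cells and read 7.42 with Pam3CSK4, 8.73 at 12 h and 7.40 at 24 h. CCL22 thus stood apart at 12 h alone, while CCL8 and CCL2 were also far above resting cells on the Pam3CSK4 array. CCL20 and CCL4 differed by 1.12 and 1.10. CCL5 was 0.66 higher, CCL23 0.36 higher and CCL19 stood at -0.18. Of the CXC chemokines outside the list of neutrophil attractants 4 were measured. None of these 4 was 2-fold different and their median was -0.07. CXCL13, the B-cell attractant, differed by 0.75, the interferon-induced CXCL10 by 0.26, CXCL12 by -0.40 and CXCL14 by -0.48.

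Among genes with a probe set of their own, the largest difference was that of COXFA4L3, earlier named C15orf48 or NMES1. Its small product sits in mitochondria and resembles a subunit of cytochrome oxidase. The 1 probe set of COXFA4L3 read 4.59 in resting cells, 4.75 with Pam3CSK4, 7.75 at 12 h and 5.23 at 24 h. Above the filter level was the 12 h array alone, so the gene had to be higher there. The difference of 2.99 is thus the measured size and not a precise one. HMGN2P46, a transcribed pseudogene nearby on chromosome 15 with 1 other gene of the array between them, read 4.96, 6.58, 9.02 and 6.83 in the same order, a difference of 2.44. Its probe set also carries the suffix _x_at. RefSeq places the microRNA MIR147B inside COXFA4L3. The array did not measure the mature microRNA, whose sequence is shown with the seed, bases 2 to 8, in capitals because it is part of the same locus.
hsa-miR-147b-3p, chr15:45433098-45433118, plus strand: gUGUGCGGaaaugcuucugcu

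**Figure D2:**
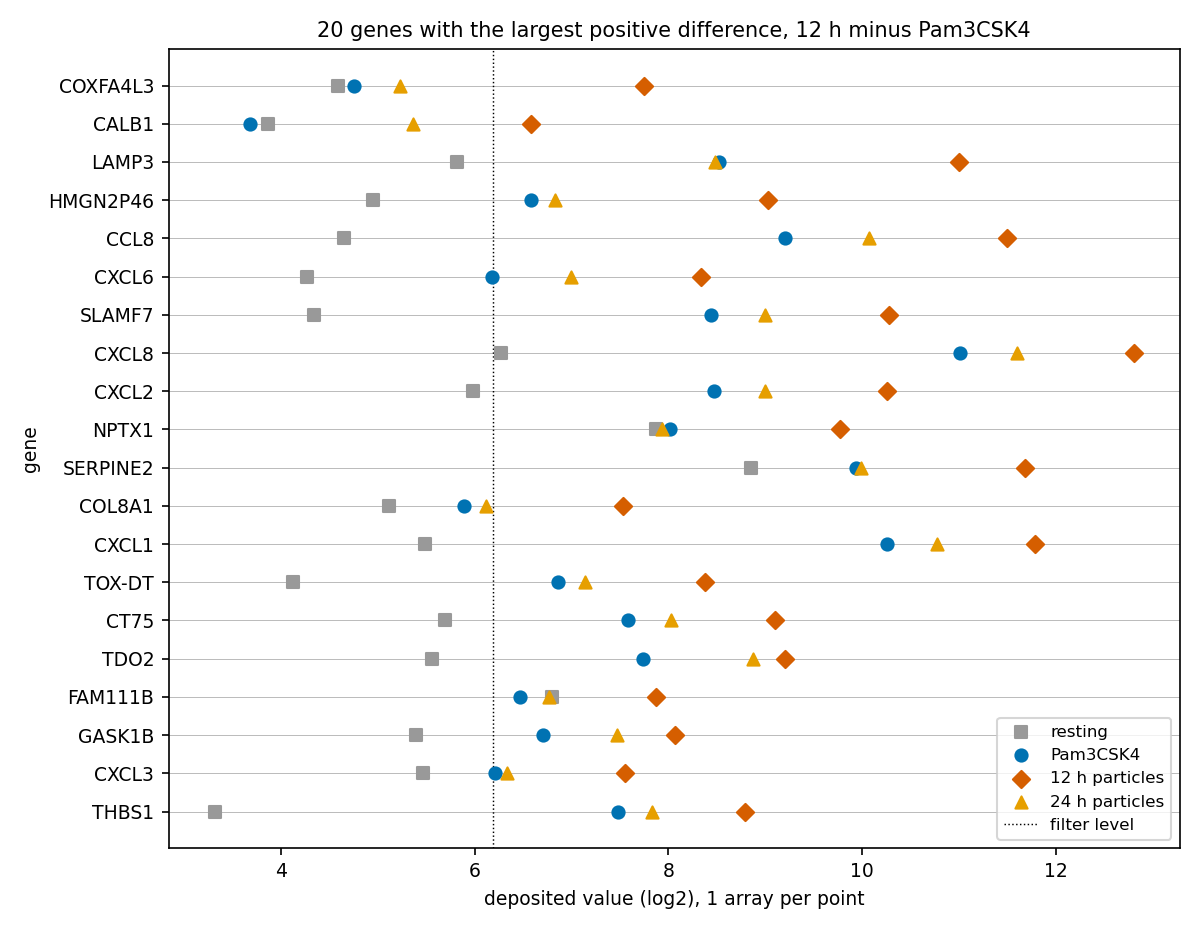
Deposited log2 values on the 4 arrays for the 20 genes with the largest positive difference, 1 point per array, with the filter level of 6.19 dotted. In each of the 20 genes the 12 h point lies to the right of the other points, as it does for COXFA4L3 at 7.75 and LAMP3 at 11.001.

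Of 16 measured genes of dendritic maturation and co-stimulation, 3 were higher by 2-fold or more, against 0.419% of all genes, and 0 lower, and the median was 0.33. LAMP3, which marks mature dendritic cells and sits in the lysosomal membrane, read 5.82 in resting cells, 8.52 with Pam3CSK4, 11.001 at 12 h and 8.48 at 24 h. It was 5.58-fold higher at 12 h and no higher at 24 h than with Pam3CSK4. SLAMF7, a self-binding receptor of leukocytes, read 4.34, 8.44, 10.27 and 8.99, and its 3 probe sets above the filter differed by 1.83, 1.29 and 0.85. CD80, a ligand of CD28 on T cells, went from 7.09 to 8.28 on one probe set and differed by 0.55 on the other. Behind them, the maturation marker CD83 differed by 0.88, the homing receptor CCR7 by 0.62 and the inhibitory ligand CD274 by 0.59. FSCN1, an actin bundler, stood at -0.22. CCR7, at 5.69 with Pam3CSK4, passed the filter through the 12 h array alone and so had to be positive. Over the 15 members above the filter on the Pam3CSK4 array the median was 0.30. Class II presentation genes were closer to the background, with 0 of 12 at least 2-fold different and a median of 0.11. HLA-DMB led at 0.29 and the invariant chain gene CD74 was at -0.55.

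Interferon-induced genes were higher nearly throughout the list and by less than chemokines. Of 37 measured members 36 had a positive difference, against 41.2% of all genes, and the median was 0.57, but 4 reached 2-fold. IFI44L read 4.65 in resting cells, 9.61 with Pam3CSK4, 10.91 at 12 h and 9.81 at 24 h. OAS3, an enzyme that makes the activator of the antiviral nuclease RNase L, read 7.37, 11.14, 12.37 and 11.11. RSAD2, or viperin, differed by 1.01 on one probe set and 0.54 on the other, and EPSTI1 by 1.004 and 1.10. At 24 h, on the probe sets that stood for these 4 genes, the widest gap to Pam3CSK4 was 0.23, for EPSTI1. With probe sets averaged OAS3 was at 0.60 and RSAD2 at 0.77, under 2-fold. MX1 and ISG15 stood just below the line at 0.96 and 0.95, while IFITM3 and IFI27 were at 0.03 and -0.00. Of 13 genes tied more to interferon gamma 0 reached 2-fold, and their median was 0.14. TAP1, a peptide transporter subunit, led them at 0.60 and GBP2 was at -0.36.

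The promoters of IFI44L and OAS3 are shown since all 4 interferon-induced genes at 2-fold held the interferon motif.
IFI44L, chr1:78620198-78620447, plus strand: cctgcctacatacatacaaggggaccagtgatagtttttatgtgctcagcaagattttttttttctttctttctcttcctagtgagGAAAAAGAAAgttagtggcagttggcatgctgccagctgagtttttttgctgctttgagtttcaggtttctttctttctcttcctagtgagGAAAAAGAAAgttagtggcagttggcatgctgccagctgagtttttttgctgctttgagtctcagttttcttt
OAS3, chr12:112938224-112938473, plus strand: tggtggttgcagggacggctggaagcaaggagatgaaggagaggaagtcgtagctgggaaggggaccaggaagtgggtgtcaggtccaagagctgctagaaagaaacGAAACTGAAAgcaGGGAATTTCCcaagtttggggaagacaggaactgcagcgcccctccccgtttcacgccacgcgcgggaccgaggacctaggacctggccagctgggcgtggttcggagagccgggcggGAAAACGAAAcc
The motif began at -164 and -73 in IFI44L, within a repeated stretch, and at -143 and -12 in OAS3. OAS3 in addition held GGAATTTCC at -129. Of 35116 promoters 3.02% held the interferon motif. It was found in 21 of 30 measured interferon-induced genes with a promoter, in 9 of 40 higher genes and in 1 of 35 lower genes, MNDA. The higher genes with it were AXL, BCL2A1, EPSTI1, IFI44L, MAP3K8, OAS3, RCAN2, RSAD2 and SGK1. The interferon list is a list of genes long known for that element, so its share there is no independent finding.

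The NF-kB list, which holds the subunits, their inhibitors and well-known targets, had a median of 0.24, and all 16 measured members had a positive difference, against 41.2% of all genes. At 2-fold higher were 2 of 16, against 0.419%, the stress-response gene IER3, which went from 8.54 to 9.68, and the survival gene BCL2A1, which went from 8.43 to 9.44. TRAF1, an adaptor of TNF receptors, was just short at 0.98. The subunit genes REL and NFKB1 differed by 0.57 and 0.50, RELA by 0.04, and the inhibitor gene NFKBIA by 0.26. MAP3K8, the kinase that links this pathway to ERK, was outside the list and went from 6.60 to 7.78 on one probe set and by 0.53 on the other.

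Secreted cytokines showed smaller differences. Of 18 measured members 0 were at least 2-fold different, the median was 0.21 and 14 were positive, against 41.2% of all genes. IL1B read 10.78 with Pam3CSK4 and 11.56 at 12 h, a difference of 0.78. The B-cell factor TNFSF13B also differed by 0.78, IL6 by 0.68 and IL23A by 0.67, whereas TNF stood at 0.22, the receptor antagonist IL1RN at -0.27 and LTB at -0.45. IL6, at 5.65 with Pam3CSK4, passed the filter through the 12 h array alone and so had to be positive. Over the 17 cytokine genes above the filter on the Pam3CSK4 array, 13 were positive and the median was 0.20. Chemokine and cytokine receptors were split. Of 26 measured receptor genes 0 reached 2-fold, and the median was 0.11. Positive were 14, against 41.2% of all genes, and negative were 12. IL7R was the highest at 0.89 and IL18R1 was at 0.85, while the chemokine receptors CX3CR1, CXCR4 and CCR2 were the lowest at -0.93, -0.87 and -0.65. IL18R1, at 5.76 with Pam3CSK4, passed the filter through the 12 h array alone and so had to be positive. Over the 24 receptor genes above the filter on the Pam3CSK4 array, 12 were positive and the median was 0.04.

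Toll-like receptors and their adaptors had 2 of 17 members at least 2-fold lower, against 0.358% of all genes, and 0 higher. CD14, which hands bacterial ligands to TLR2 and TLR4, read 6.52 in resting cells, 8.93 with Pam3CSK4, 7.74 at 12 h and 9.13 at 24 h. TLR8, a sensor of RNA inside endosomes, read 4.39, 9.85, 8.74 and 9.91 in the same order, and with probe sets averaged it was at -0.82, short of 2-fold. Both were lowest in resting cells and lower at 12 h than on the Pam3CSK4 and 24 h arrays. TLR2, the receptor of the ligand, stood at -0.64, its partners TLR1 and TLR6 at 0.29 and -0.18, and MYD88 at -0.05. TLR1, at 5.97 with Pam3CSK4, passed the filter through the 12 h array alone and so had to be positive. Over the 15 members above the filter on the Pam3CSK4 array, 7 were positive and the median was -0.053. Over all 17 the median was 0.10, and it turned to -0.053 when the filter was set at the 75th percentile. The list as a whole thus had no stable direction. The class II list, above, turned to -0.047 under the same filter.

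Several other genes at 2-fold belong to signalling and adhesion. STAT4, a transcription factor downstream of interleukin-12, read 5.99 in resting cells, 6.56 with Pam3CSK4, 7.84 at 12 h and 6.54 at 24 h. SOCS2, which limits growth hormone signals, read 6.72, 5.23, 6.35 and 6.23. SOCS2 was the exception among the 55, the gene whose 12 h value lay below its resting value. In the list of SOCS genes and signal transducers these were 2 of 18 at least 2-fold higher, against 0.419% of all genes. The median was 0.06. SOCS2 passed the filter through the 12 h array alone and so had to be higher there. Of the 17 members above the filter on the Pam3CSK4 array 1 was at least 2-fold higher, and their median was 0.04. DUSP10, a phosphatase of p38 and JNK, differed by 1.02, the salt and stress kinase gene SGK1 by 1.08, and RASGRP1, an activator of Ras, by 1.10. The connexin genes GJA3 and GJB2, direct neighbours on chromosome 13, differed by 1.23 and 1.11, although the other GJA3 probe set was at 0.16.

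SERPINE2, an inhibitor of thrombin and of plasminogen activators, was 3.33-fold higher, at 8.85 in resting cells, 9.94 with Pam3CSK4, 11.67 at 12 h and 9.98 at 24 h. In the list of coagulation, fibrinolysis and adhesion genes it was the 1 gene of 16 at least 2-fold higher, against 0.419% of all genes. Tissue factor, F3, was at -0.52. The integrin chains ITGAL and ITGA4, partners of ICAM1 and VCAM1 on the opposite cell, were at least 2-fold lower at -1.09 and -1.07. The other probe sets above the filter differed by -0.96 and -0.65 for ITGA4 and by -0.81 for ITGAL. Neither stayed at 2-fold with probe sets averaged, at -0.97 for ITGA4 and -0.95 for ITGAL, or after cyclic loess, at -0.97 and -0.99. TDO2, which opens the tryptophan ring, read 5.56, 7.73, 9.20 and 8.87, and so stayed high at 24 h. NPTX1, a neuronal pentraxin, read 7.87, 8.01, 9.77 and 7.93 and was high at 12 h alone. AXL, a receptor for GAS6 on phosphatidylserine-bearing surfaces, read 7.89, 7.87, 9.15 and 8.05, with 0.44 on its other probe set.

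The remaining genes with large positive differences had less known roles in monocytes. CALB1, a calcium-binding protein, read 3.87 in resting cells, 3.68 with Pam3CSK4, 6.59 at 12 h and 5.37 at 24 h, so it crossed the filter level at 12 h alone. COL8A1, a short-chain collagen gene, read 5.12, 5.89, 7.53 and 6.12. TOX, a nuclear protein of lymphocytes, and the divergent transcript TOX-DT at the same locus of chromosome 8 differed by 1.04 and 1.53. FAM111B differed by 1.40 and 1.89 on its probe sets, GASK1B by 1.36 and the non-coding gene CT75 by 1.52. The others at 2-fold higher, from DOCK4 at 1.25 down to WIPF3 at 1.01, were DOCK4, EPYC, BHLHE40, ECRG4, TMEM200A, ZNF366, RND3, HGD, CLEC5A, LINC00597, LINC00996, PNPLA1, RCAN2 and WIPF3. RCAN2, a regulator of calcineurin, was at 1.07. Among the others BHLHE40 is a transcriptional repressor and CLEC5A a myeloid lectin receptor. Of the 55 genes, 9 had a Pam3CSK4 value under the filter level, where signal over background was not established. Across the 55, the median level was 5.56 in resting cells, 7.73 with Pam3CSK4, 9.10 at 12 h and 8.03 at 24 h.

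A pair of globin genes, HBG1 and HBG2, also passed 2-fold, and it is not among the 55 since its probe sets name more than 1 gene. Gamma globin, the beta-type chain of fetal haemoglobin, is encoded by HBG1 and HBG2, near-identical genes that the array cannot tell apart. On 204848_x_at the pair read 6.85 in resting cells, 6.57 with Pam3CSK4, 9.20 at 12 h and 9.95 at 24 h. On 204419_x_at it read 6.40, 5.99, 9.39 and 10.09, and on 213515_x_at 5.01, 5.29, 9.33 and 10.30. The 2 co-culture arrays read higher than the others on all 3 probe sets. These probe sets read the same pair on the same arrays, so they are not separate observations. With the first, whose Pam3CSK4 value passed the filter, the 12 h difference was 2.62, or 6.17-fold. Unlike the chemokines, the pair was higher at 24 h than at 12 h on each probe set.

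The other globins differed by far less. The 6 probe sets of HBA1 and HBA2, the alpha chains, differed by 0.10 to 1.26, and the widest, 214414_x_at, went from 4.13 to 5.39 without reaching the filter. HBE1, the embryonic beta-type chain, read 5.42, 5.45, 6.30 and 7.504 on 205919_at, and 4.18, 3.97, 4.16 and 3.98 on its other probe set. Adult HBB differed by 0.44 and 0.40 on 2 of 4 probe sets and by 0.00 and -0.00 on the others, and HBD by 0.02. HBM, HBQ1 and HBZ, minor or embryonic chains of the alpha type, differed by 0.23, 0.21 and 0.16, all under the filter level. Of the globin and erythroid list, each pair counted as 1, 8 entries were above the filter on the Pam3CSK4 array. All 8 were positive, against 41.2% of all genes, their median was 0.31, and 1 was at least 2-fold higher, the HBG pair, against 0.419%. HBE1 and ANK1, an ankyrin of the red cell membrane, passed through the 12 h array alone, and with them the median of 10 was 0.36. Beside these, the bacterial control probe sets had a median difference of 0.23, and all genes under 7 log2 one of 0.05. Whether the smaller positive differences of this list exceed background was not tested. Carbonic anhydrase 1, CA1, differed by 0.83, the alpha chain chaperone AHSP by 0.16 and GATA1, the erythroid and megakaryocyte transcription factor, by 0.06.

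**Figure D3:**
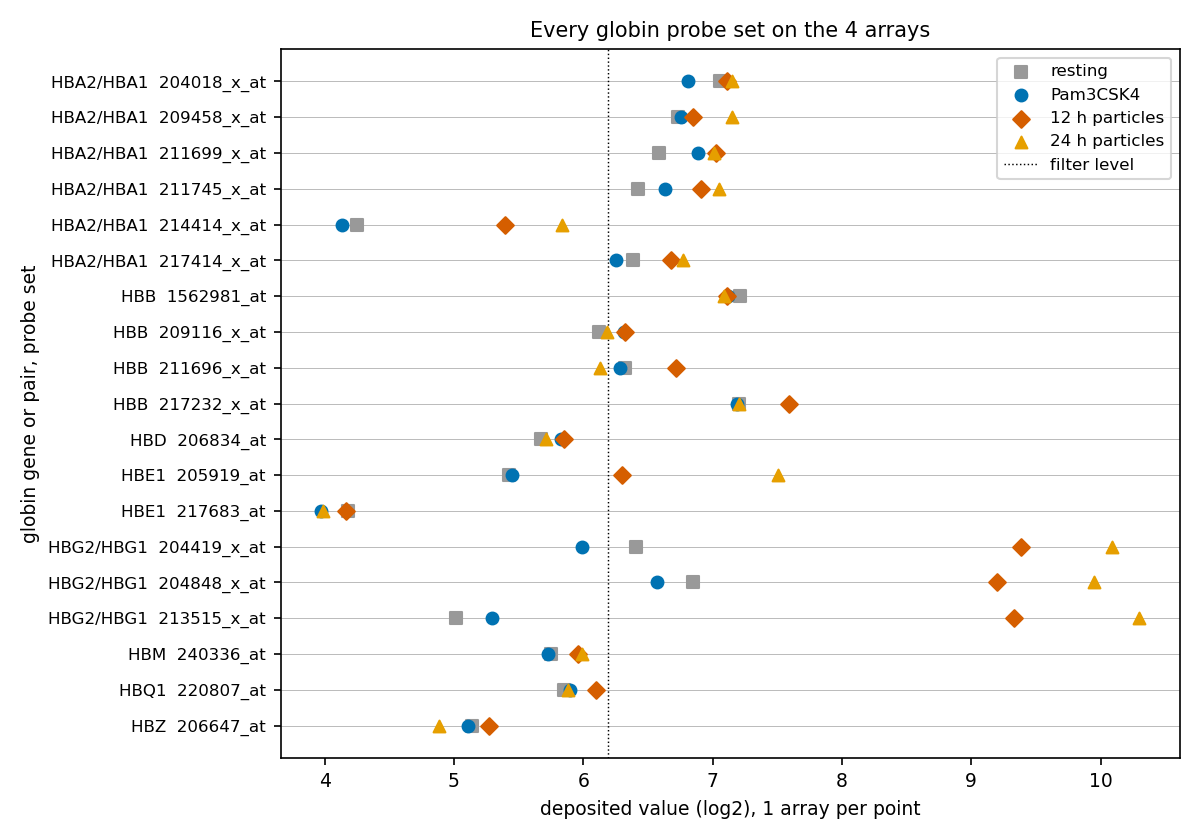
Every globin probe set of the array, 1 point per array, on the deposited log2 scale, with the filter level dotted. The 3 HBG1 and HBG2 rows show the 12 h and 24 h points above 9, with the resting and Pam3CSK4 points between 5 and 7.

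Of 18 measured megakaryocyte and platelet genes 12 were positive, against 41.2% of all genes, and the median was 0.35. At least 2-fold higher was 1, against 0.419%, and 0 were lower by as much, against 0.358%. Over the 16 above the filter on the Pam3CSK4 array, 10 were positive and the median was 0.33. The gene at 2-fold was THBS1, or thrombospondin, a platelet granule protein that activated macrophages make as well. It read 3.32 in resting cells, 7.48 with Pam3CSK4, 8.79 at 12 h and 7.83 at 24 h, and its other probe sets above the filter differed by 0.68 and 0.05. Markers of the lineage were near the filter level. The platelet receptor TREML1 went from 6.58 to 7.12 and SELP, the P-selectin gene, from 6.06 to 6.57. GP1BA, a chain of the von Willebrand factor receptor, went from 6.41 to 6.79 and GP9 from 7.15 to 7.51. In resting cells, without particles, TREML1 read 7.25 and GP9 7.58, above their 12 h values. SELP at 6.37 and GP1BA at 6.22 were below theirs there. SELP passed the filter through the 12 h array alone and so had to be higher on it than with Pam3CSK4. ITGA2B, the fibrinogen receptor alpha chain, stood at -0.04. Of 9 platelet and megakaryocyte markers on the array 5 were above the filter with Pam3CSK4 and 6 at 12 h, and their summed level was 9.36 and 9.69 log2, against 9.63 on the resting array. The bacterial control probe sets, which read no cell RNA, had a median difference of 0.23 beside these.

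Markers of other cell types were read in the same way. The summed level of the erythroid markers went from 9.18 with Pam3CSK4 to 10.24 at 12 h, with the HBG pair the highest of them. Lymphocyte markers went from 10.39 to 10.12, endothelial markers from 11.46 to 12.00, nearly all of it PECAM1, which monocytes express, and fibroblast and epithelial markers from 9.89 to 10.22. Their part in the differences was not tested, and less RNA per cell cannot be told apart from fewer cells of a type in bulk RNA.

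Among the 47 lower genes no list held as many as the chemokines did among the 55. Which direction had more genes depended on the setting: at 1.5-fold 374 genes were lower and 256 higher, and with a filter at the 75th percentile there were 38 of each. The largest negative difference was that of S1PR3, a receptor of sphingosine-1-phosphate, which read 8.18 in resting cells, 8.81 with Pam3CSK4, 6.72 at 12 h and 8.60 at 24 h. Its other probe set above the filter went the opposite way, from 6.22 to 6.76, so its direction rests on the choice of probe set. BMP8B, a bone morphogenetic protein gene, read 12.47, 11.29, 9.29 and 10.80, a 4.01-fold difference, with -1.41 and -0.17 on its other probe sets. PLS3, which bundles actin, read 8.30, 8.83, 6.91 and 9.05 on its 1 probe set. CA2, a cytosolic carbonic anhydrase, read 13.70, 13.06, 11.37 and 12.83 on its 1 probe set, far above the filter level on every array. In each of these the 12 h array was the lowest of the 4.

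RIPOR2 had another course, with its lowest value in resting cells. It read 3.56 in resting cells, 8.07 with Pam3CSK4, 6.39 at 12 h and 8.10 at 24 h. HAL, which breaks down histidine, read 9.42, 8.92, 7.32 and 8.81, and LGR4, a receptor of R-spondins, 9.79, 9.62, 8.15 and 9.46. With probe sets averaged HAL was at -0.74 and LGR4 at -0.51, under 2-fold. DHRS9, a retinol dehydrogenase, read 12.53, 10.40, 9.05 and 10.13, and its other probe sets differed by -1.91 and -1.93. DHRS9 was thus among the few whose probe sets all passed 2-fold. BTK, a kinase downstream of B-cell and myeloid receptors, read 9.07, 8.57, 7.25 and 8.31, and GFI1, a repressor in granulocyte development, 11.13, 10.21, 8.997 and 9.90. ARPC1B, a subunit of the actin-nucleating ARP complex, read 12.52, 12.69, 11.44 and 12.33.

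**Figure D4:**
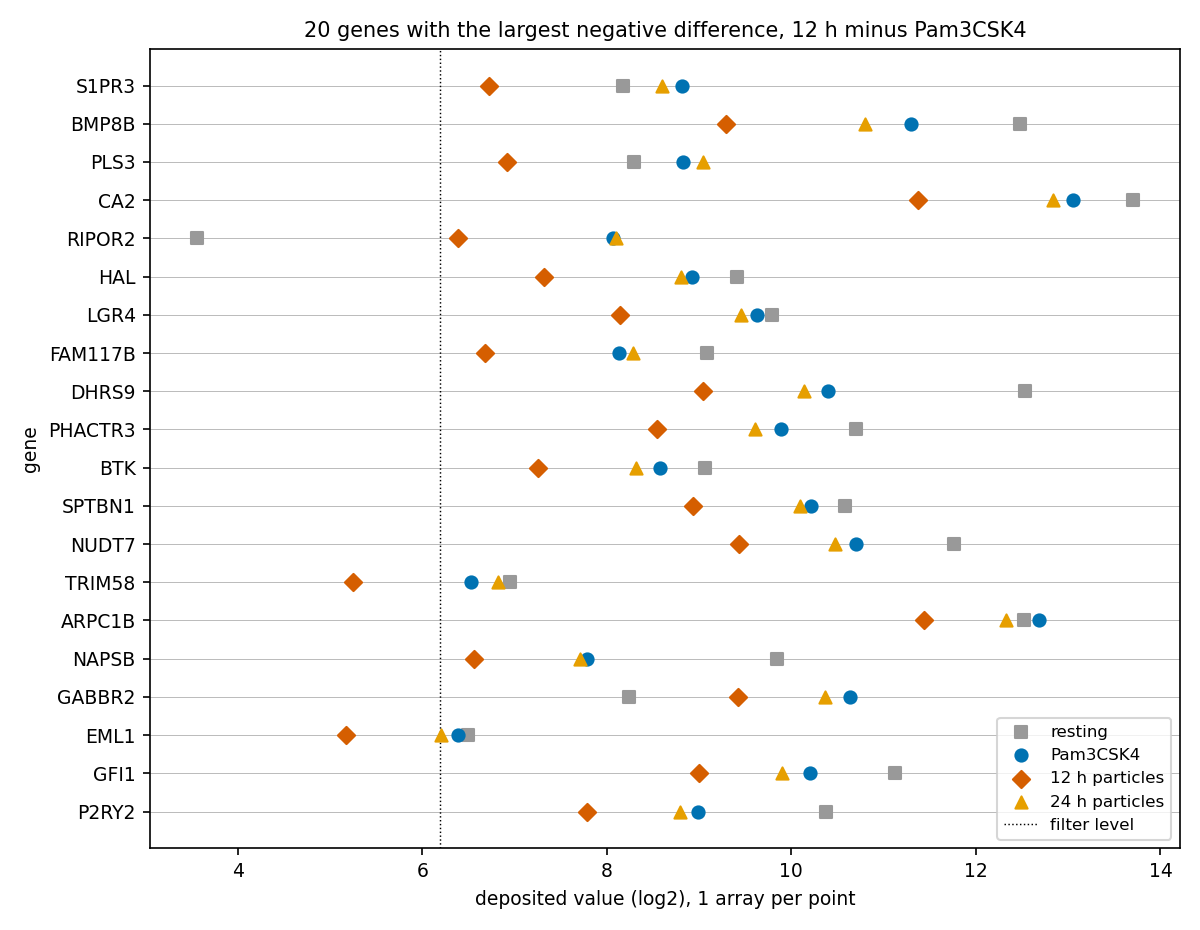
Deposited log2 values on the 4 arrays for the 20 genes with the largest negative difference, 1 point per array, with the filter level dotted. The 12 h point lies to the left of the Pam3CSK4 and 24 h points in each gene, and RIPOR2 and GABBR2 are the genes whose resting point lies further left still.

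Innate sensors and death genes appeared among the rest. STING1, the adaptor of cytosolic DNA sensing, read 10.61 in resting cells, 9.60 with Pam3CSK4, 8.60 at 12 h and 9.34 at 24 h, and both of its probe sets passed 2-fold. After cyclic loess it was at -0.91, TASL at -0.92 and PMAIP1 at -0.91, all short of 2-fold. TASL, an adaptor for endosomal Toll-like receptors, differed by -1.03, and the C-type lectin CLEC4A by -1.001. PMAIP1, or NOXA, which promotes apoptosis, differed by -1.01 on one probe set and -0.25 on the other. A list of 12 BCL2 family genes left out BCL2A1, given above at 1.02. In it PMAIP1 was the 1 gene lower by 2-fold or more, against 0.358% of all genes. The list's median was -0.12, with BAX, the pore-forming member, at -0.81. The others at 2-fold lower, from PHACTR3 at -1.34 to BRD3OS at -1.02, were PHACTR3, SPTBN1, NUDT7, TRIM58, NAPSB, GABBR2, EML1, P2RY2, TRPM1, FAM20C, ADGRA2, ABCB4, RASGRP2, LINC01133, MUC1, RXFP1, CLTCL1, TUBA1A, SLC27A2, PTGES3L, TNKS2, CDCA7, LGALS2, RNF175 and BRD3OS. SPTBN1, a spectrin of the membrane skeleton, was at -1.28, NAPSB at -1.22, GABBR2, a GABA receptor subunit, at -1.22, MUC1, a membrane mucin, at -1.12, SLC27A2, a fatty acid transporter, at -1.06 and CDCA7 at -1.05. Among the others P2RY2 is a receptor of extracellular nucleotides and TUBA1A a tubulin. Across the 47 lower genes, the median level was 9.57 in resting cells, 9.09 with Pam3CSK4, 7.98 at 12 h and 9.05 at 24 h.

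Of 19 measured monocyte genes 2 were lower by 2-fold or more, against 0.358% of all genes. By as much 0 were higher, against 0.419%, and the median was -0.24. Besides CD14, MNDA, a nuclear protein of myeloid cells, was at -1.16. It read 11.22, 10.08, 8.92 and 10.04 in the order used above. S100A12 and ITGAM, the CD11b chain, were at -0.66, S100A9 at -0.39 and S100A8 at -0.29. Against that run, CYBB, the membrane subunit of the phagocyte oxidase, was at 0.82 and CLEC7A, the receptor of fungal glucans, at 0.58. In macrophage genes 0 of 11 reached 2-fold and the median was -0.07, led by the lipid receptor gene TREM2 at 0.94. Immature myeloid genes, with 0 of 13 at 2-fold and a median of 0.04, ranged from KIT at 0.75 to MYB at -0.53.

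Lipid genes were mostly lower at 12 h without reaching 2-fold. Of 13 measured LXR and lipid genes 12 were negative, against 7702 of all 13129 genes. Their median was -0.57, the lowest of the 43 lists, although 0 reached 2-fold. MYLIP, which degrades the LDL receptor, was at -0.82, lipoprotein lipase, LPL, at -0.75, the desaturase SCD at -0.72 and NR1H3, the LXR alpha gene itself, at -0.62. The exception was PLIN2, the coat of lipid droplets, at 0.54. Several of these genes had a probe set with a weaker or opposite difference, such as 0.22 for MYLIP and -0.03 for SREBF1. Of 13 sterol synthesis genes 1 was at least 2-fold lower, ACAT2 at -1.06, against 0.358% of all genes, and the median was -0.16. FDPS and SREBF2 were at -0.60 and -0.57, while HMGCS1 and SQLE were at -0.10 and -0.24.

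Of 30 cell cycle genes 25 were negative, against 7702 of all 13129 genes, with 0 at 2-fold and a median of -0.21. By level, all genes had medians of -0.09 to -0.11 over the levels from 8 to 12 log2. CCNB2 and the replication clamp gene PCNA were at -0.45 and -0.42, while CCND2 was at 0.91, up from 5.44, under the filter level. Among immediate early genes MYC was at -0.96, KLF4 at -0.84 and the MAPK phosphatase DUSP4 at 0.97, and the median of 18 was -0.06. Oxidative phosphorylation genes had 16 of 17 negative, against 7702 of all 13129 genes, and a median of -0.20. Ribosomal proteins had a median of -0.02, and reference genes -0.13. ACTB was at -0.10 and GAPDH at -0.18. The median of all genes was -0.05. Histone genes, 5 in number, were at -0.26 and turned to 0.020 with the stricter filter.

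Stress genes were positive in part. NRF2 and iron genes had a median of 0.17 with 13 of 17 positive, against 41.2% of all genes, and 0 at 2-fold. SRXN1, OSGIN1 and the cystine transporter SLC7A11 were at 0.90, 0.78 and 0.69. Metallothioneins, which bind zinc, had 9 of 10 positive, against 41.2% of all genes, and a median of 0.33. MT2A went from 13.72 to 14.05 and MT1M from 5.99 to 6.93. MT1M passed the filter through the 12 h array alone and so had to be positive. Over the 9 members above the filter on the Pam3CSK4 array, 8 were positive and the median was 0.33. Among heat shock genes, with a median of 0.03, the pair HSPA1A and HSPA1B was at 0.81 and HSPB1 at -0.67. In the unfolded protein list DDIT3, or CHOP, was at 0.72 and the chaperone HSPA5 at -0.36, and the median of 18 was 0.10. Inflammasome genes had a median of 0.19, from CASP5 at 0.52 to PSTPIP1 at -0.44.

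The other lists held few or no genes at 2-fold. Among all genes 0.419% were higher and 0.358% lower by as much. In Fc receptors and myeloid signalling 1 of 15 was lower, BTK, and PILRA and SRC were at 0.88 and 0.70, for a median of 0.08. Of 4 carbonic anhydrases 1 was lower, CA2, and CA13 was at -0.26, for a median of -0.21. Lysosomal genes had 0 of 22 and a median of -0.03, from the protease CTSC at 0.59 to HEXA at -0.40. Matrix proteases and inhibitors had 0 of 14 and a median of 0.01, with TIMP3 at 0.61 and ADAMDEC1 at -0.40. Hypoxia and glycolysis genes had 0 of 21 and a median of -0.13, with NDRG1 at -0.86 and ADM at 0.52. Eicosanoid genes had 0 of 10 and a median of 0.04, with PLA2G7 at 0.69 and PLA2G4A at -0.61. Complement genes had 0 of 10 and a median of -0.12, which turned to 0.041 with probe sets averaged, and p53 targets 0 of 12 and a median of -0.06. Lymphocyte, endothelial, and fibroblast and epithelial lists had 0 of 10, 0 of 6 and 0 of 9, with medians of 0.06, 0.09 and 0.29. Over members above the filter on the Pam3CSK4 array these medians were -0.02, 0.06 and 0.11.

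**Figure D5:**
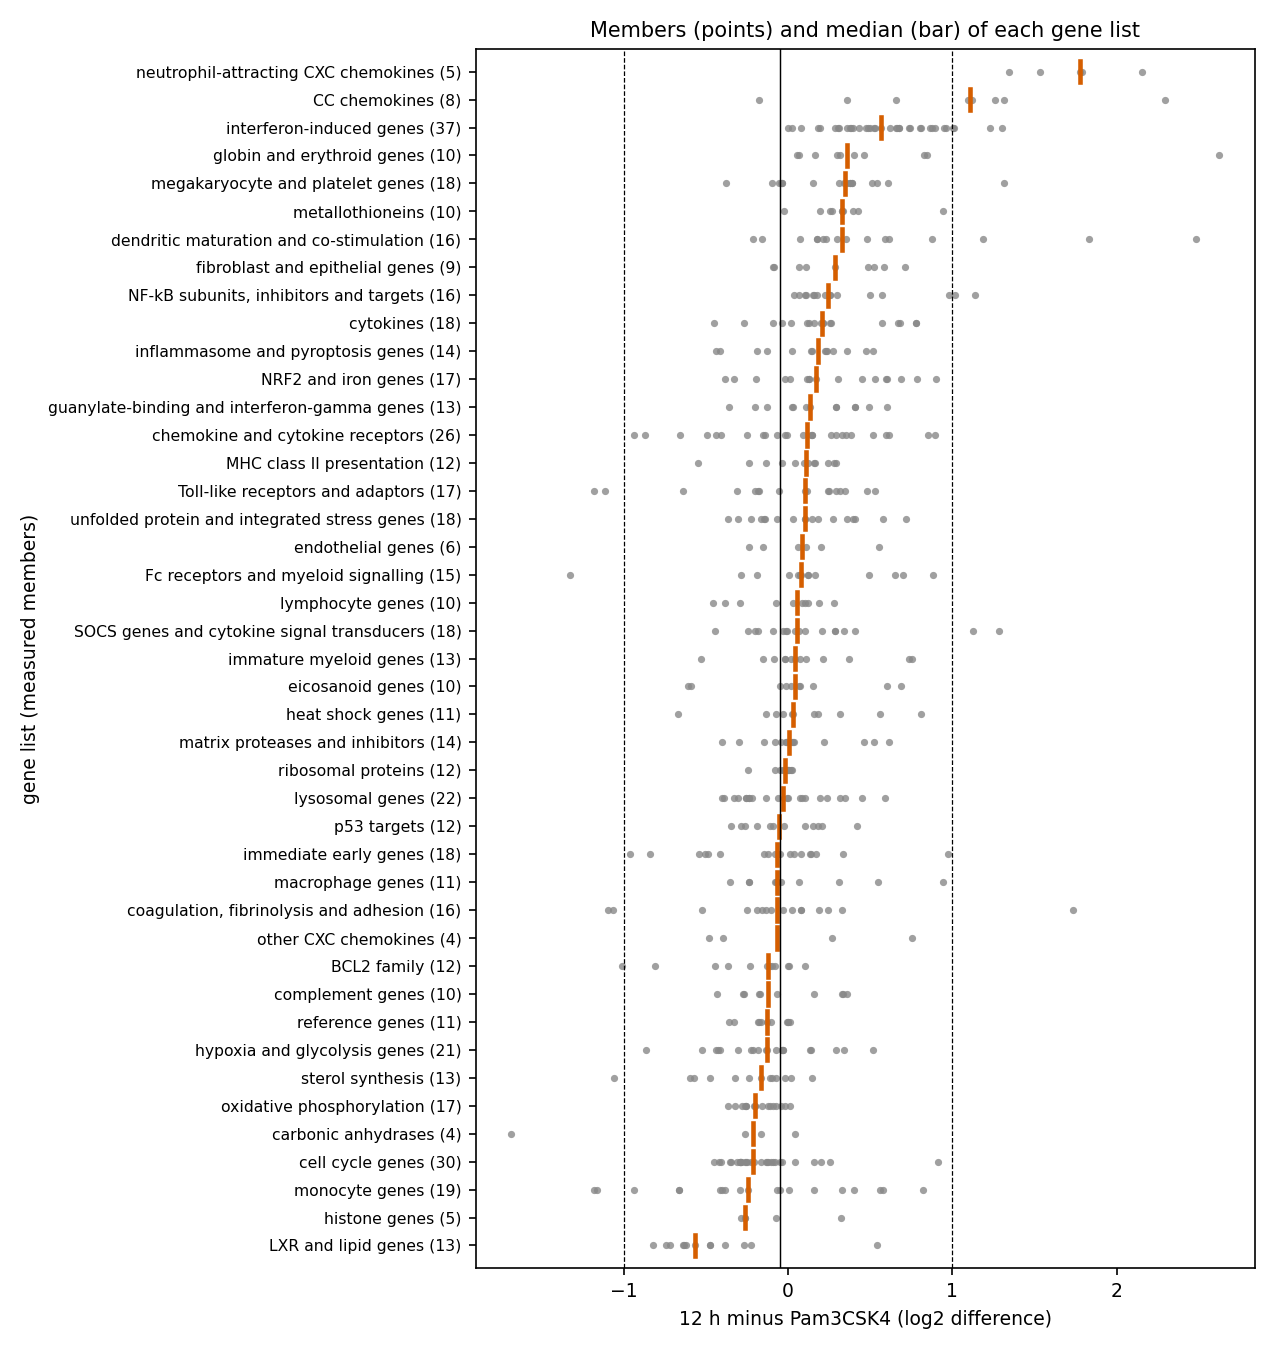
Differences (log2) of the measured members of each of 43 gene lists as points, with the list's median as an orange bar, sorted by median. The vertical line marks the median of all genes, -0.05, and the dashed lines mark 2-fold. Chemokine lists lie at the top with medians of 1.78 and 1.11 and LXR and lipid genes at the bottom with -0.57.

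Probe sets of the same gene were the available check of precision. Of the 55 higher genes 15 had several probe sets above the filter, all 15 with a single sign, and 3 had every such probe set past 2-fold, namely CXCL8, FAM111B and EPSTI1. Of the 47 lower genes 24 had several, 21 with a single sign, and 6 had every one past 2-fold: STING1, CDCA7, SLC27A2, MUC1, NAPSB and DHRS9. The 3 with mixed signs were S1PR3, FAM117B and SPTBN1. A probe set that passed the filter through the 12 h array alone had to be positive, and one through the Pam3CSK4 array alone negative. A probe set of FAM111B, at 5.44 with Pam3CSK4, and one of CDCA7, at 6.04 at 12 h, were such cases. Probe sets under the filter on both arrays, such as one of CD80 at -0.13, were not counted. The single signs were therefore fixed in part by the filter. The median range between a gene's probe sets was 0.64 log2 in the higher and 0.57 in the lower genes, over a median difference of 1.23 and -1.18. Since probe sets share an array and a labelling reaction, their agreement says nothing of the spread between cultures.

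Counted by probe set, 108 of 28365 passed 2-fold upward (0.381%) and 88 downward (0.31%). Those naming no gene in the annotation were uneven, with 24 of 3953 higher (0.607%) and 7 lower (0.177%). Of those naming several genes, 3 of 1146 were higher, the HBG pair on each, and 5 were lower.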

How the data were processed

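Biotin-labelled RNA of THP-1 cells was read on 4 Affymetrix arrays, 1 per condition, per the labels' protocols. The deposited values are log2 values for 54675 probe sets. Per the submitters' processing notes they were made with RMA in affy 1.28.1, which corrects background, brings arrays to a common distribution and summarises probes. They ran from 2.54 to 15.22, and sorted columns differed by at most 0.11. A global change in RNA content is therefore not visible, and low values are compressed. Scale follows from the values, no centring of genes was found, and no direction is involved with 1 colour. Array medians were 6.19 (resting), 6.18 (Pam3CSK4), 6.22 (12 h) and 6.17 (24 h). Groups came from the source labels. The title of the 12 h array carries another number than its description, and the description was used.

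Genes were named where a probe set names 1 gene (41091 did, 1801 named several, 11721 were not listed, 62 were controls). Of the 41091, 41037 were found by gene ID in the RefSeq table of GRCh38.p14. Among a gene's probe sets, the one with the highest 4-array mean stood for it. With 1 array a side there is no test, p-value or error, and arrays' number limits precision. Genes at least 2-fold different, the 20 largest each way, leading members of 43 lists (793 genes) and all globin probe sets were named. A list member counted as measured at 6.19 or more on either array. Members and lists were chosen with earlier results of these data known. Alternatives were no filter, a 75th percentile filter, averaged probe sets, omission of _x_at and _s_at probe sets, cyclic loess (limma 3.58.1, R 4.3.3, 3 iterations), 1.5-fold and 3-fold, and the smallest difference over probe sets. Python 3.11.15, numpy 2.4.6, pandas 2.3.3 and matplotlib 3.10.9 were used, and the counting was tested on simulated data.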

Additional observations from a re-analysis of the deposited data

Results flagged for a closer look

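TRPM1, a cation channel gene, was at least 2-fold lower at 12 h and higher at 24 h. It read 3.95 in resting cells, 7.64 with Pam3CSK4, 6.46 at 12 h and 8.41 at 24 h, which is -1.18 at 12 h and 0.77 at 24 h against the same Pam3CSK4 array. Its other probe set above the filter differed by -0.62 and 0.24. The difference between the time points was not tested, since each is 1 array.

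Signal outside the named genes came from probe sets to which the annotation gives no gene. The largest difference was on 236962_at, which read 4.77 with Pam3CSK4 and 7.21 at 12 h, a difference of 2.44, with 5.09 in resting cells and 4.79 at 24 h. The next were 244300_at at 1.63, 239851_at at 1.60, 204614_at at -1.60 and 240232_at at 1.54. On the first 3 the 12 h array was the highest of the 4.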

How the results depend on the processing

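With 1 array a side the counts rested on the threshold and on the probe set. At 1.5-fold 256 genes were higher and 374 lower, and at 3-fold 12 and 6. With probe sets averaged 37 genes were higher and 26 lower, and with each gene at the probe set that differed least 43 and 29. With cyclic loess 63 were higher and 37 lower, with no filter 61 and 48, with a 75th percentile filter 38 and 38, and without _x_at and _s_at probe sets 47 and 33. Of the 55 higher genes 36 of the 48 still measured stayed at 2-fold with probe sets averaged, and all 55 did with cyclic loess. Of the 47 lower genes 25 of 41 stayed with averaging and 36 of 47 with cyclic loess. CXCL2 was at 0.70, OAS3 at 0.60 and S1PR3 at -0.78 with averaging. Between the main and another setting, 4 list medians changed sign: Toll-like receptors and adaptors (-0.053), MHC class II presentation (-0.047) and histone genes (0.020) with the 75th percentile filter, and complement genes (0.041) with averaging. The cause was not tested. No named gene at 2-fold changed sign under the filter, averaging, omission or loess settings. No paired analysis was possible because each group holds 1 array. Signal over background limits the 9 higher genes whose Pam3CSK4 value and the 4 lower genes whose 12 h value was under the filter.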
